A study of Sus scrofa with 24 samples.

Results

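The thin filament of striated muscle carries the calcium switch of contraction, and 9 genes of that switch were examined in pig back muscle: the troponin genes TNNT1, TNNT3, TNNI1, TNNI2, TNNC1 and TNNC2 and the tropomyosin genes TPM1, TPM2 and TPM3. They were taken by gene symbol from a table of assembled transcripts, in which they made up 9 of 12017 genes and 51 of 22154 transcripts. Of the 51 transcripts, 43 were reference transcripts and 8 were added by the assembly, and all 51 passed the filter on low values.

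The study sequenced polyA RNA (paired reads of 150 bases) from the longissimus dorsi, a muscle that runs along the spine, of 24 Duroc × Luchuan F1 pigs, 1 animal per library. Intramuscular fat (IMF) was high in 12 of these pigs and low in the other 12, per the labels. All belonged to a cross of 265 pigs, sired by 8 boars of the Duroc breed out of 112 sows of the Luchuan breed, shared a farm and a diet, were slaughtered at 210 ± 6 days, and had muscle taken 25 minutes after death. High and low IMF were therefore classes of untreated animals of 1 cross, compared to ask which transcripts differ with the fat content of the muscle.

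Contraction begins when calcium binds troponin C, which releases the block that troponin I places on actin and myosin, and troponin T couples this change to tropomyosin, the coiled coil that lies along the actin filament. Slow oxidative and fast glycolytic fibres use different genes for each subunit. TNNT1, TNNI1 and TNNC1 encode the slow T, I and C subunits (TNNC1 is also the cardiac C subunit), and TNNT3, TNNI2 and TNNC2 encode the fast ones. TPM1 encodes alpha tropomyosin, which predominates in fast fibres and heart, TPM3 encodes the slow alpha form, and TPM2 encodes beta tropomyosin, which occurs in both fibre types. The longissimus is known as a largely fast, glycolytic muscle.

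Values are FPKM, fragments per kilobase of transcript scaled to the size of the library, and a gene sum adds up all transcripts listed under its symbol. The table states no read counts, so depth per library is unknown here; summed FPKM per library was 351119 to 415572 in high and 352579 to 408682 in low IMF animals. Animal numbers follow accession order within high and within low IMF. All 9 skeletal fibre markers chosen were in the table, with a summed level of 12359 to 40857 FPKM in high and 17407 to 48095 FPKM in low IMF animals. The low IMF median was exceeded in 2 of 12 high IMF animals. That sum averaged 32845 FPKM in high and 38440 FPKM in low IMF animals. The skeletal actin gene ACTA1 alone averaged 21138 and 27725 FPKM of it. The lower sum in high IMF animals was thus that of ACTA1, and the other markers together were not lower. Of 7 cardiac markers, TNNT2 alone was listed, at 0.739 to 4.31 FPKM in high and 0 to 3.10 FPKM in low IMF animals. The 6 adipocyte markers summed to 84.7 to 254 FPKM in high and 37.3 to 161 FPKM in low IMF animals. The part of these shifts in the member values was not tested, and in whole muscle fewer fibres of a type and less RNA per fibre cannot be told apart.

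The 9 genes were among the most abundant of the muscle and together held 7.66 ± 1.35% of all FPKM in high and 7.92 ± 1.33% in low IMF animals (SD, n = 12 each). Over all 24 animals the order of the gene sums was led by TPM1 at 11676 ± 2406 FPKM (SD), the gene ranked 3 of 12017. It was followed by TNNC2 at 6904 ± 2642, TPM2 at 4240.0 ± 917, TNNT3 at 2664 ± 1022, TNNI2 at 2083 ± 1262, TNNT1 at 1001 ± 397, TNNC1 at 822 ± 313, TPM3 at 358 ± 170.2 and TNNI1 at 294 ± 126 FPKM. Every gene overlapped its neighbour in this order within 1 SD. The order holds for symbol sums. With the overlapping transcripts that carry no symbol, described further on, TNNT3 averaged 7591 ± 2209 FPKM, above TNNC2. TNNI2 then averaged 5089 ± 2417 FPKM, above TPM2. Such transcripts were sought for TNNT3 and TNNI2 only. Within single animals TPM1 stood above TNNC2 in 24 of 24 animals and TNNC1 above TPM3 in 24 of 24, whereas TNNT3 stood above TNNI2 in 16 of 24 and TPM3 above TNNI1 in 19 of 24.

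The fast subunit exceeded the slow one in nearly every animal. TNNC2 was above TNNC1 in 24 of 24 animals, TNNT3 above TNNT1 in 23 and TNNI2 above TNNI1 in 22. The 3 subunits of a troponin complex, which assemble in equal numbers, did not have equal RNA levels: TNNI1 was below both TNNT1 and TNNC1 in 24 of 24 animals, and TNNC2 was above TNNI2 in 24 of 24 and above TNNT3 in 22. The place of TNNC2 also depended on those transcripts: with them TNNT3 stood above TNNC2 in 15 of 24 animals and TNNI2 in 9. The spread between animals also differed by gene. The coefficient of variation of the symbol sums over 24 animals was 20.6% for TPM1 and 21.6% for TPM2, 38.0% to 43.0% for 5 of the 6 troponin genes, 47.5% for TPM3 and 60.6% for TNNI2. With the transcripts that carry no symbol, TNNI2 had 5089 ± 2417 and TNNT3 7591 ± 2209 FPKM (SD). The spread relative to the mean was then smaller for both.

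**Figure D1:**
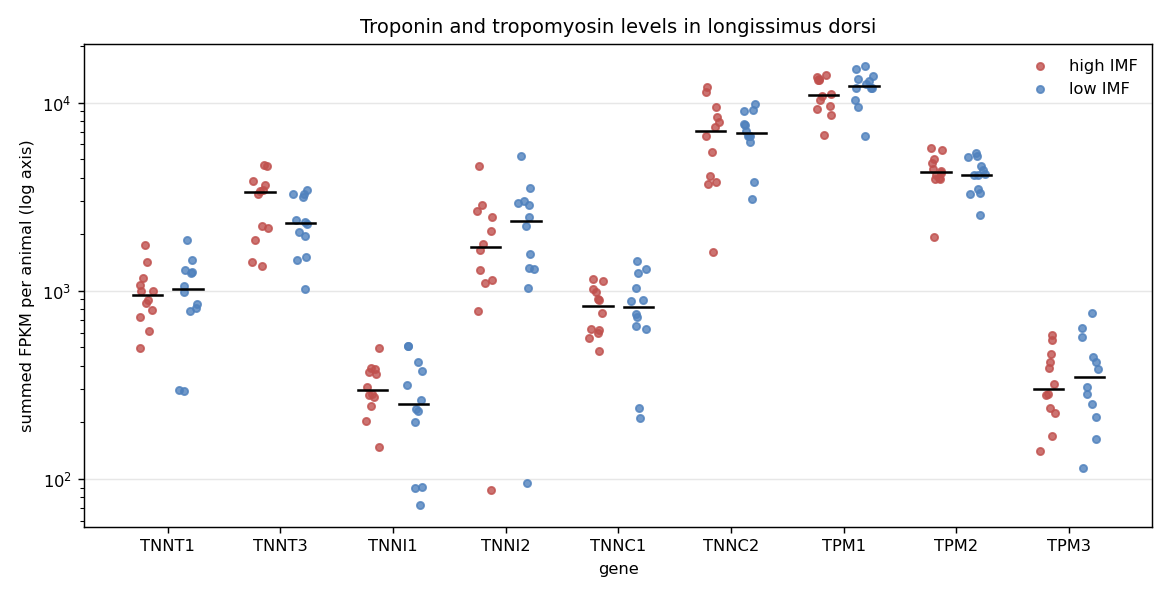
Summed FPKM (log axis) of each of the 9 genes in every animal, high IMF left of low IMF, with a black line at the group median. The groups overlap for all 9 genes, and TNNI2 falls to 87.0 FPKM in high IMF animal 1 and 94.6 FPKM in low IMF animal 4.

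High and low IMF animals overlapped in all 9 genes, and 0 of 9 passed the threshold of an adjusted p of 0.05 in limma, against 0.051% of all 11757 genes tested (6 genes). At an unadjusted p under 0.05 the count was again 0 of 9, against 7.68% of all genes (903). Fold changes below are high minus low IMF on the log2(FPKM + 1) scale, with the standard error (SE), the 95% interval and the limma p after Benjamini-Hochberg adjustment over all genes.

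Among the T subunits, slow TNNT1 (chromosome 6, 59351177 to 59365770, minus strand) had a lowest, median and highest level of 496, 945 and 1749 FPKM in high IMF animals, against 293, 1019 and 1874 FPKM in low IMF animals. The ranges nested, with 2 low IMF animals below all high IMF animals and 1 above them. Its log2 fold change was 0.05 (SE 0.26, interval -0.49 to 0.59, adjusted p = 0.976). Fast TNNT3 (chromosome 2, 1299273 to 1316514, plus strand) had 1348, 3341 and 4649.5 FPKM in high IMF animals, against 1024, 2294 and 3434 FPKM in low IMF animals. In 4 high IMF animals it exceeded every low IMF animal, and the high IMF median was exceeded in 1 low IMF animal. The fold change of 0.32 (SE 0.23, interval -0.14 to 0.79) did not pass, with an adjusted p of 0.738. It turned to -0.04 (SE 0.19) once transcripts without a symbol that overlap TNNT3 were added, as described further on.

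Among the inhibitory subunits, slow TNNI1 (chromosome 10, 23784634 to 23804082, minus strand) had 147, 296 and 499 FPKM as lowest, median and highest level in high IMF animals, against 72.8, 250.2 and 508 FPKM in low IMF animals. In 3 low IMF animals it lay below every high IMF animal, and in 2 above. The log2 fold change was 0.37 (SE 0.29, interval -0.23 to 0.97, adjusted p = 0.774). Fast TNNI2 (chromosome 2, 1251527 to 1254226, plus strand) had 87.0, 1710.1 and 4613 FPKM in high IMF animals, against 94.6, 2342 and 5210.4 FPKM in low IMF animals. Each group had 1 animal near the bottom of that range, which made TNNI2 the least precise member, with a log2 fold change of -0.30 (SE 0.55, interval -1.44 to 0.84, adjusted p = 0.923). The estimate was 0.07 without high IMF animal 1 and -0.68 without low IMF animal 4.

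Among the calcium-binding subunits, slow TNNC1 (chromosome 13, 34591210 to 34594329, minus strand) had 477, 827 and 1154.5 FPKM in high IMF animals, against 211, 819 and 1448 FPKM in low IMF animals, with 2 low IMF animals below and 3 above the whole high IMF range. Its log2 fold change was 0.10 (SE 0.27, interval -0.44 to 0.65, adjusted p = 0.947). Fast TNNC2 (chromosome 17, reference transcripts at 48023061 to 48028587, minus strand) had 1599.5, 7035 and 12093 FPKM in high IMF animals, against 3083, 6907 and 9807 FPKM in low IMF animals. Here the high IMF animals reached beyond the low IMF range at both ends, 1 below and 2 above it. The log2 fold change was -0.15 (SE 0.26, interval -0.69 to 0.40, adjusted p = 0.923), and 0.03 without high IMF animal 12, the lowest.

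Of the 9 genes, TPM1 and TPM2 had the narrowest intervals. TPM1 (chromosome 1, 108985778 to 109019044, minus strand) had 6758, 11041 and 13968.5 FPKM in high IMF animals, against 6692, 12279 and 15697 FPKM in low IMF animals. The high IMF median was exceeded in 9 of 12 low IMF animals, and the log2 fold change was -0.12 (SE 0.13, interval -0.39 to 0.15, adjusted p = 0.840). TPM2 (chromosome 1, 236402247 to 236410905, minus strand) had 1937, 4273.5 and 5750.1 FPKM in high IMF animals, against 2531, 4143 and 5436 FPKM in low IMF animals. Its log2 fold change was 0.05 (SE 0.15, interval -0.25 to 0.35, adjusted p = 0.953). TPM3 (chromosome 4, 95542324 to 95573009, plus strand) had 140.3, 301 and 579 FPKM in high IMF animals, against 114, 346 and 763 FPKM in low IMF animals. Its log2 fold change was -0.10 (SE 0.28, interval -0.67 to 0.48, adjusted p = 0.958). TPM1 held 70.2 ± 6.42% of the tropomyosin FPKM in high and 72.7 ± 4.27% in low IMF animals, TPM2 held 27.5 ± 6.04% and 24.97 ± 3.70%, and TPM3 held 2.31 ± 1.36% and 2.31 ± 1.22%, in the same order (SD, n = 12 each).

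The sign of the fold change was positive for 5 of 9 members, with a median of 0.05, against a median of 0.08 over all genes tested, of which 8627 of 11757 were positive. Scaling by the trimmed mean of M values (TMM) left 2 of 9 positive, TNNT3 and TNNI1, with a member median of -0.06, and turned TNNT1, TNNC1 and TPM2 to -0.06, -0.01 and -0.06.

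**Figure D2:**
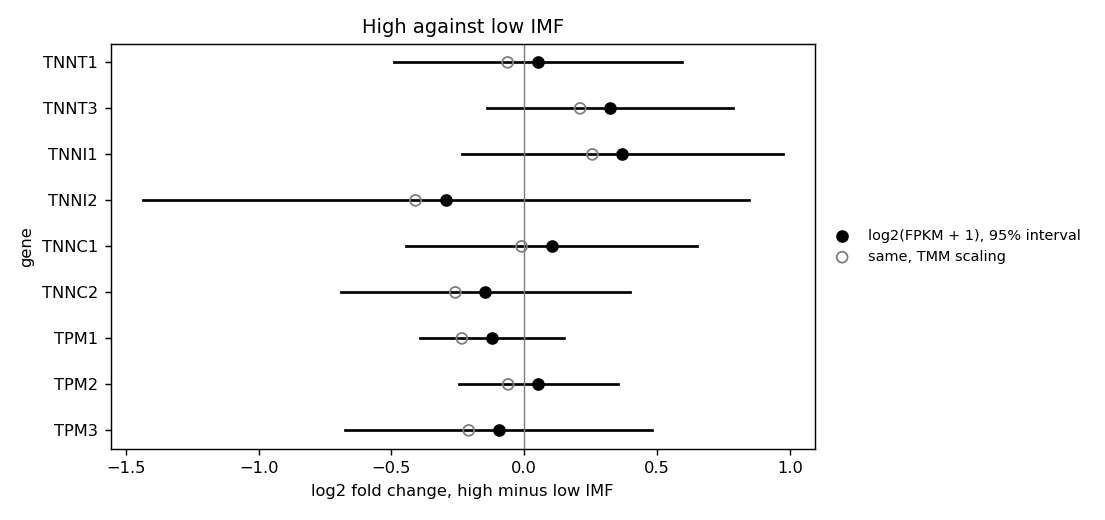
Log2 fold change of summed FPKM, high minus low IMF, for the 9 genes (filled points, with the 95% interval) and the same estimate after TMM scaling (open points). All 9 intervals include 0, and the widest is that of TNNI2, -1.44 to 0.84.

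The animal identifiers in the labels fall into 2 sets by their first 4 digits, set A with the lower and set B with the higher number, with 6 high and 6 low IMF animals in each. What the digits mean is not stated. Within the sets the high minus low difference in log2(FPKM + 1) was 0.39 and 0.26 for TNNT3 (exact permutation p = 0.221 and 0.50, set A first), and 0.49 and 0.25 for TNNI1 (exact permutation p = 0.379 and 0.543). For TNNI2 it was 0.31 in set A and -0.91 in set B (exact permutation p = 0.400 and 0.416). TNNT1 also had opposite signs, -0.09 and 0.19 (exact permutation p = 0.855 and 0.662). An interaction between IMF class and set was called for 0 of 11757 genes and so for 0 of 9 members.

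The balance of slow and fast subunits was then taken within each animal, where the scaling of a library cancels. Slow TNNT1 made up 27.0 ± 12.9% of T subunit FPKM in high and 30.5 ± 12.9% in low IMF animals, with ranges of 9.77% to 48.3% and 11.4% to 56.3%. Slow TNNI1 made up 20.4 ± 15.5% of I subunit FPKM in high and 15.9 ± 17.7% in low IMF animals, with ranges of 5.59% to 62.9% and 2.49% to 67.9%. Slow TNNC1 made up 13.4 ± 8.51% of C subunit FPKM in high and 11.14 ± 5.51% in low IMF animals (SD, n = 12 each). On symbol sums the 3 subunits thus gave different slow shares in the same muscle, and the groups overlapped widely in each. With overlapping transcripts that carry no symbol, described further on, the T share averaged 12.3% in both groups, near the C share. Such transcripts were added to TNNT3 and TNNI2 alone.

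In 3 two-sided permutation tests with 100000 resamples, 1 per subunit, no log2 slow to fast ratio differed beyond the spread between animals. The TNNT1 to TNNT3 ratio was -1.57 ± 0.98 in high and -1.30 ± 0.95 in low IMF animals, a difference of -0.27 (permutation p = 0.491). The TNNI1 to TNNI2 ratio was -2.23 ± 1.29 in high and -2.90 ± 1.64 in low IMF animals, a difference of 0.67 (permutation p = 0.283). The TNNC1 to TNNC2 ratio was -2.95 ± 1.03 in high and -3.19 ± 0.95 in low IMF animals, a difference of 0.25 (permutation p = 0.539). Single animals moved all 3 differences. The TNNI difference was 0.40 without high IMF animal 1 and 1.03 without low IMF animal 4 (permutation p = 0.50 and 0.0501), the animals lowest in TNNI2. The TNNC difference was 0.08 without high IMF animal 12 and 0.38 without high IMF animal 9. The TNNT difference was -0.42 without low IMF animal 11 and -0.12 without low IMF animal 1. In sets A and B the difference was 0.18 and 1.16 for TNNI (exact permutation p = 0.790 and 0.273), -0.48 and -0.07 for TNNT (exact permutation p = 0.394 and 0.909), and 0.13 and 0.37 for TNNC (exact permutation p = 0.820 and 0.558).

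TNNI2 and TNNT3 lie side by side on the plus strand of chromosome 2, and the assembly joined them, with LSP1 between them, into a single locus. LSP1, which encodes a leukocyte actin-binding protein, starts 18510 bases beyond TNNI2 and ends 3597 bases before TNNT3, and averaged 3.95 FPKM in high and 3.30 FPKM in low IMF animals. A further 6 transcripts of the locus carried no gene symbol and are therefore in neither gene sum. One of them, MSTRG.7033.1, runs from 1251325 to 1316508, across the whole span from TNNI2 to TNNT3, with 22 exons in 1676 bases. It averaged 1876 ± 1816 FPKM in high and 1609 ± 1246 FPKM in low IMF animals. MSTRG.7033.2 (1251339 to 1254226) covers TNNI2 and averaged 1368 ± 753 FPKM in high and 1158 ± 603 FPKM in low IMF animals. MSTRG.7033.14 (1299153 to 1316508) covers TNNT3 and averaged 1082 ± 2133 FPKM in high and 2544 ± 2176 FPKM in low IMF animals. It was close to absent in some animals and among the most abundant transcripts in others: it stood at 0 to 121 FPKM in 10 animals, 7 high and 3 low IMF, and at 363 to 7252 FPKM in the other 14, 5 high and 9 low IMF. Its log2 fold change was -1.80 (SE 1.57, limma adjusted p = 0.895). The TNNT3 sum was 3164 to 4649.5 FPKM in the 10 animals with little MSTRG.7033.14. In the other 14 animals the TNNT3 sum was 1024 to 3434 FPKM.

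Transcripts without a symbol held 53.2 ± 14.5% of the FPKM of the locus in high and 58.4 ± 9.43% in low IMF animals (SD, n = 12 each), so on average the TNNI2 and TNNT3 sums left out the larger part of its FPKM. The whole locus had a lowest, median and highest sum of 7438, 9996 and 15110.1 FPKM in high IMF animals, against 4734, 10970.3 and 17257 FPKM in low IMF animals, with a log2 fold change of -0.04 (SE 0.18). Adding the overlapping transcripts to each gene, with MSTRG.7033.1 counted in both, gave TNNT3 7434 ± 2129 FPKM in high and 7748 ± 2370 FPKM in low IMF animals. It gave TNNI2 5117 ± 2491 FPKM in high and 5061 ± 2451 FPKM in low IMF animals, a log2 fold change of 0.13 (SE 0.35). Such transcripts were sought for TNNI2 and TNNT3 only, not for the slow or C subunits, so the slow T and I shares could only fall. With the enlarged sums the slow share of T subunit FPKM was 12.3 ± 4.78% in high and 12.3 ± 6.40% in low IMF animals. That of I subunit FPKM was 6.83 ± 3.29% and 6.88 ± 6.37% in the same order. The log2 ratio differences were then 0.09 for T and 0.24 for I (permutation p = 0.797 and 0.596), the first with its sign turned.

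**Figure D3:**
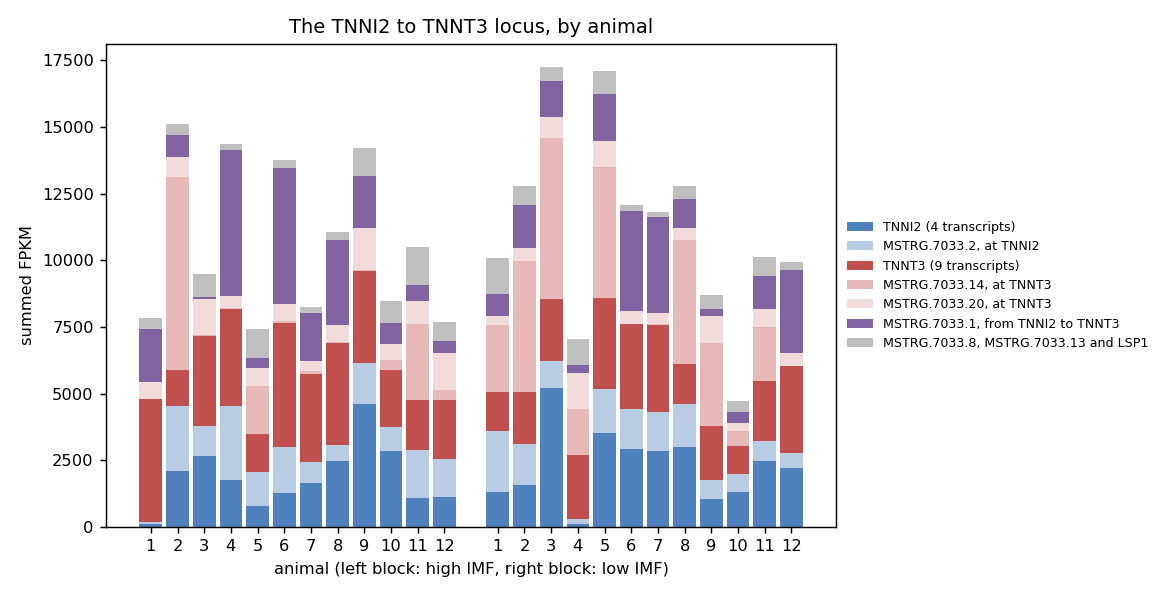
FPKM of the TNNI2 and TNNT3 symbol sums (blue and red), of LSP1 and of the transcripts without a symbol at their shared chromosome 2 locus, stacked per animal, high IMF left of low IMF; pale shades are transcripts that cover TNNI2 or TNNT3 alone. The make-up of the stack differs between animals, and the transcripts without a symbol make up 36.0% to 77.3% of the stack in high and 44.7% to 72.6% in low IMF animals.

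Single transcripts gave the same outcome. By limma, 0 of 51 member transcripts passed for their level, against 0.0187% of 21405 transcripts tested (4), and 0 of 51 had an unadjusted p under 0.05, against 6.34% (1357). As a share of their gene, 0 of 51 passed, against 0% of 15024 shares tested, and 1 of 51 had an unadjusted p under 0.05, against 4.87% (731). In the authors' deposited table, 0 of 51 had a p under 0.05 and the lowest was 0.0675. The share over all transcripts was not counted for that column. The share with the low unadjusted p was that of TNNT3 transcript ENSSSCT00000042285, with 16 exons in 989 bases. It held 1.87% to 17.4% of TNNT3 in high and 3.31% to 10.2% in low IMF animals. The means were 10.6 ± 4.55% in high and 6.84 ± 2.14% in low IMF animals, a difference of 3.72 points (SE 1.46, unadjusted p = 0.0178, limma adjusted p = 0.962). Its level averaged 340 ± 213 FPKM in high and 164 ± 90.0 FPKM in low IMF animals, a log2 fold change of 0.84 (SE 0.42, limma adjusted p = 0.788). The TNNT3 sum behind this share leaves out MSTRG.7033.14, which covers TNNT3 and varied between animals. The part of that transcript in these differences was not tested.

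The genes differed in how many transcripts carried them, and 30 of the 51 transcripts held at least 5% of their gene on average. Nearly all TPM1 FPKM lay in the assembled transcript MSTRG.461.11, of 11 exons and 1318 bases, at 97.7 ± 1.19% in high and 98.4 ± 1.03% in low IMF animals, and the 8 reference transcripts of TPM1 averaged 2.52 to 67.8 FPKM each over 24 animals. TNNT3 was spread over 7 such transcripts. The leading one, ENSSSCT00000046868, held 36.8 ± 4.98% in high and 38.1 ± 6.13% in low IMF animals. TNNT1 was spread over 5, led by ENSSSCT00000044398 at 29.3 ± 5.47% in high and 27.4 ± 5.61% in low IMF animals. Troponin T pre-mRNAs are known for extensive alternative splicing, and the table lists 9 transcripts of TNNT3 and 6 of TNNT1, beside 10 of TPM1 and 7 of TNNI1.

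In other members the leading transcript fell to a small share in a few animals of both groups. Another transcript took its place in some of these animals but not in all. TNNI1 transcript ENSSSCT00000051019 held 72.3% to 81.5% of the gene in 20 animals and 1.16% to 10.99% in high IMF animals 1, 4 and 11 and low IMF animal 7. In those high IMF animals ENSSSCT00000056348 held 59.9%, 69.6% and 61.6%, and in low IMF animal 7 it held 16.9%, against at most 3.33% elsewhere. Low IMF animal 7 had the lowest TNNI1 sum, 72.8 FPKM, beside 1461 FPKM of TNNT1 and 1241 FPKM of TNNC1. In that animal ENSSSCT00000051019 stood at 0.848 FPKM and the highest other TNNI1 transcript at 18.35 FPKM, so the leading transcript was not replaced. TPM2 transcript MSTRG.1074.2, of 10 exons and 2136 bases, held 41.5% to 82.9% in 20 animals and at most 0.950% in high IMF animals 2, 3 and 8 and low IMF animal 10. There ENSSSCT00000053274, also of 10 exons but of 1183 bases, held 86.9% to 91.1%, against 12.3% to 50.9% in the other 20. TNNI2 transcript ENSSSCT00000049867 held 0.467% in high IMF animal 1 and 0.233% in low IMF animal 4, and 23.6% to 88.3% in the other 22. No other transcript listed under TNNI2 rose in its place, and the TNNI2 sums of these animals were the lowest, at 87.0 and 94.6 FPKM. MSTRG.7033.1 spans TNNI2 but is outside its symbol sum. It stood at 1979 FPKM in high IMF animal 1 and 293 FPKM in low IMF animal 4.

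**Figure D4:**
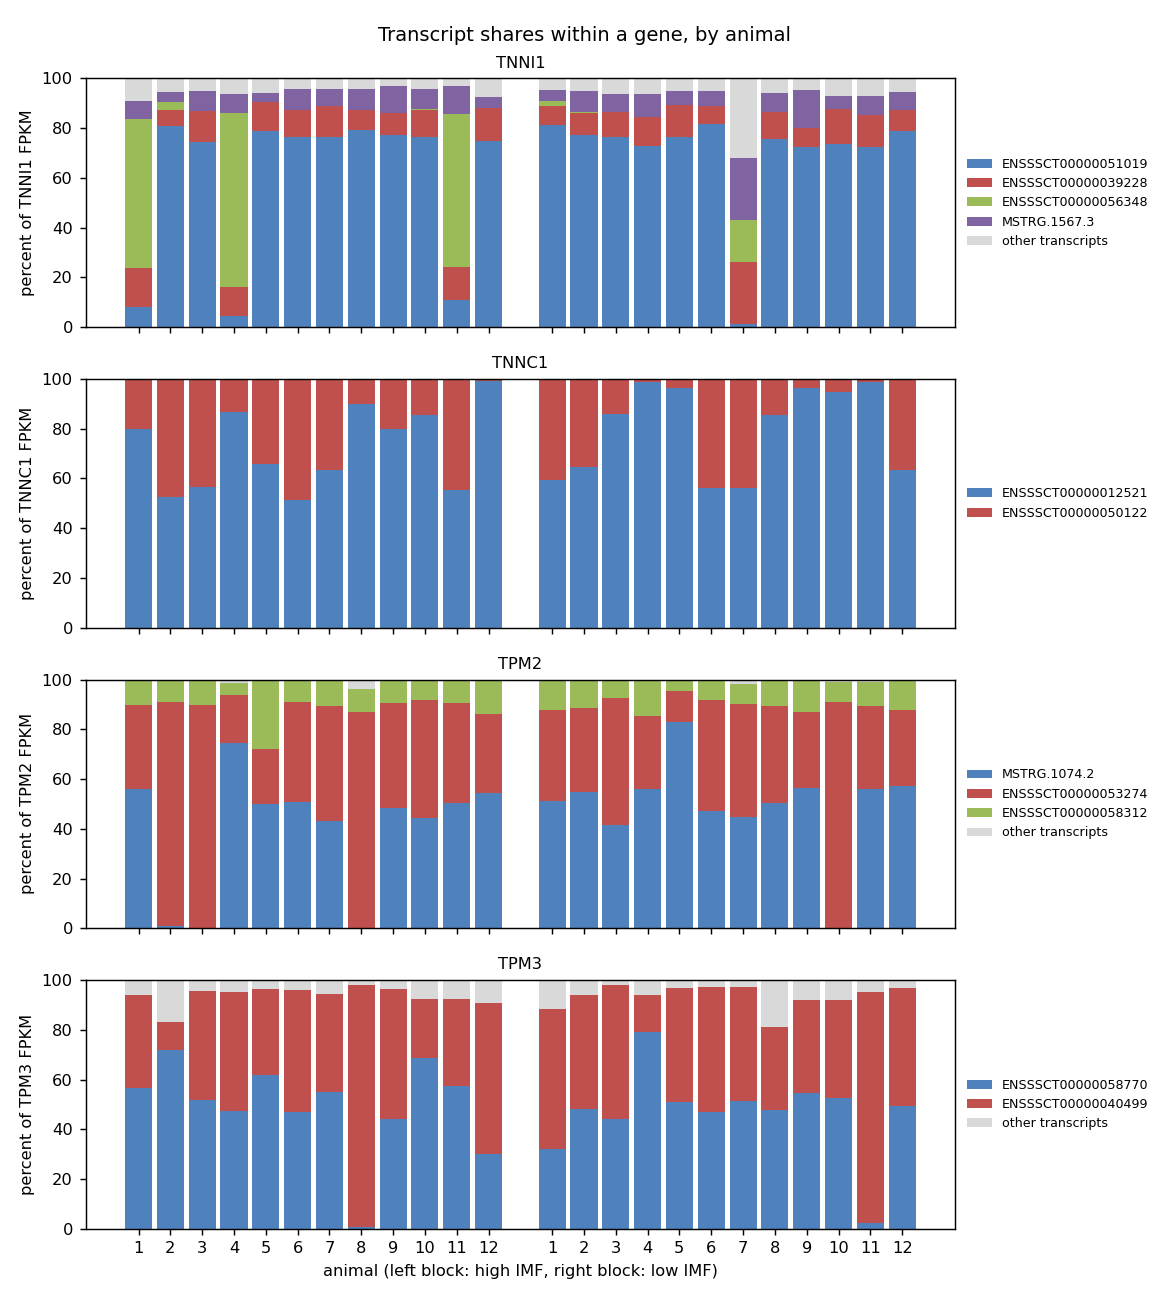
Percent of the gene's FPKM (0 to 100) held by each transcript of TNNI1, TNNC1, TPM2 and TPM3, stacked per animal, high IMF left of low IMF; transcripts under 5% on average are grouped as other. The leading TNNI1 and TPM2 transcripts (blue) fall to at most 10.99% and 0.950% in 4 animals each, and the second TNNC1 transcript (red) is at most 5.41% in 6 animals.

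TNNC1 had 2 transcripts with the same ends, one of 6 exons and 867 bases (ENSSSCT00000012521) and one of 5 exons and 950 bases (ENSSSCT00000050122). The second held 0.895% to 48.8% of the gene in high and 1.23% to 43.9% in low IMF animals, with means of 27.9 ± 16.5% and 20.3 ± 18.1% in the same order, a difference of 7.60 points (SE 6.89, limma adjusted p = 0.962). It was at most 5.41% in 6 animals, 1 high and 5 low IMF. TPM3 was shared between ENSSSCT00000058770, at 49.3 ± 19.0% in high and 46.6 ± 17.6% in low IMF animals, and ENSSSCT00000040499, at 44.4 ± 21.2% in high and 46.9 ± 18.2% in low IMF animals.

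The assembled TNNC2 transcript MSTRG.6428.1, of 8 exons, ran from 47950543 to 48030114. It reached beyond both ends of the reference transcripts and across DNTTIP1, which lies on the opposite strand. It held 17.1 ± 19.2% of TNNC2 in high and 19.7 ± 8.57% in low IMF animals. It was at most 3.10% in 7 animals, 5 high and 2 low IMF, 18.4% to 25.5% in 16 and 69.6% in high IMF animal 12, whose TNNC2 sum was the lowest. The leading TNNC2 transcript, ENSSSCT00000008127, held 73.9 ± 17.1% in high and 71.9 ± 9.25% in low IMF animals. How reads were divided between overlapping transcripts was set by the authors' assembly, so single transcripts and shares are less certain than sums.

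Across the 24 animals the levels of the slow troponin subunits were correlated with each other. Of 36 pairs of members, compared on log2(FPKM + 1), 6 had an adjusted permutation p under 0.05 for Spearman's rho and for Pearson's r. The share among pairs of other genes was not counted. TNNT1 and TNNC1 were the closest pair (r = 0.94, rho = 0.88, permutation p = 1e-05 for each, the smallest that 100000 resamples can give, adjusted p = 0.00036 for each), and r was 0.86 without low IMF animals 9 and 11. Spearman's coefficient for this pair was 0.79 in high and 0.94 in low IMF animals, and 0.92 and 0.83 in sets A and B. TNNT1 and TNNI1 gave r = 0.70 and rho = 0.74 (permutation p = 0.00021 and 6e-05, adjusted p = 0.00378 and 0.00108), with r of 0.46 without low IMF animals 9 and 11. TNNI1 and TNNC1 gave r = 0.68 and rho = 0.69 (adjusted permutation p = 0.00852 and 0.00384), with r of 0.92 without low IMF animals 7 and 11.

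TPM3, the slow tropomyosin, went with TNNT1 (r = 0.57, rho = 0.56, adjusted permutation p = 0.0222 and 0.0401) and with TNNC1 (r = 0.60, rho = 0.53, adjusted permutation p = 0.0151 and 0.0487). Without low IMF animals 9 and 11 these r values were 0.32 and 0.36, so both relations rested largely on that pair of animals. Spearman's coefficient for TPM3 with TNNT1 was 0.18 in high and 0.83 in low IMF animals, and with TNNC1 0.04 in high and 0.81 in low IMF animals; the difference between groups was not tested. Among the fast members TNNC2 went with TPM1 (r = 0.58, rho = 0.66, adjusted permutation p = 0.0222 and 0.00648). TNNT3 and TNNI2 gave rho = 0.17, TNNT3 and TNNC2 0.18, and TNNI2 and TNNC2 0.14, none past the threshold, and the first of these pairs shares the locus whose RNA is partly outside both sums. Levels in a library share its scaling, which was not separated here.

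**Figure D5:**
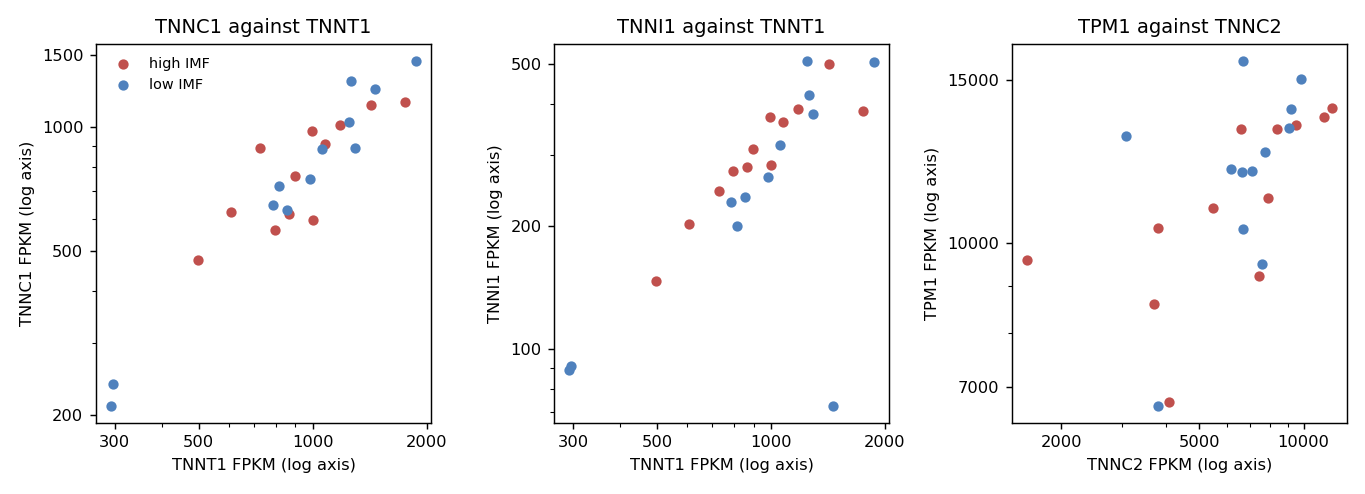
FPKM (log axes) of TNNC1 and of TNNI1 against TNNT1, and of TPM1 against TNNC2, 1 point per animal, with high and low IMF in different colours. High and low IMF animals lie along the same bands, low IMF animals 9 and 11 sit at the low end of the slow genes, and low IMF animal 7 stands apart at 72.8 FPKM of TNNI1.

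The genes whose levels followed a member most closely were taken by Spearman's rho among 3834 genes over 24 animals, as a description. For TNNT1 they were TNNC1 (0.88), MYH7B (0.84), a slow-type myosin heavy chain gene, and MYL3 (0.83), the slow and ventricular myosin light chain. For TNNC1 they were MYL3 (0.90), TNNT1 (0.88) and MYOZ2 (0.77), which encodes a calcineurin-binding protein of the Z disc. For TNNI1 they were TNNT1 (0.74), TNNC1 (0.69) and MYL3 (0.65), and for TPM3 they were MYH7B (0.64), COQ8A (0.64), a gene of coenzyme Q synthesis, and FHL1 (0.63). TPM1 was followed by ENO3 (0.84), the muscle enolase, ACTN3 (0.80), the fast fibre alpha-actinin, and AK1 (0.80), an adenylate kinase. The nearest genes to TNNC2 were SUMO3 (0.72), MACROD1 (0.71) and PRDX4 (0.70). For TNNT3 they were DENND4B (0.62), ACE (0.59) and CAMK2A (0.58), for TNNI2 EXOSC6 (0.63) and MUS81 (0.62), and for TPM2 NARS2 (0.60), FASTK (0.57) and TRAPPC9 (0.56).

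Other genes of fibre type and thin filament were read from 4 lists. Of all 11757 genes tested, 6 passed and 8627 were positive, with a median log2 fold change of 0.08. An unadjusted limma p under 0.05 was found for 903 of them (7.68%). The lists gave 0 of 11 slow, 1 of 11 fast, 0 of 14 thin filament and 1 of 15 regulator genes. After TMM scaling, 2 of 11 slow, 2 of 11 fast, 4 of 14 thin filament and 4 of 15 regulator genes were positive. Their medians were then -0.17, -0.23, -0.07 and -0.11 in that order, against -0.001 over all genes. Of the slow fibre genes outside the members, 0 of 11 tested passed in either direction and 4 were positive, with a median log2 fold change of -0.05. Of the fast fibre genes 0 of 11 passed, with 4 positive and a median of -0.12. MYLPF, the fast regulatory light chain, came nearest, at 3682 ± 1546 FPKM in high and 4859 ± 1100.1 FPKM in low IMF animals (log2 fold change -0.46, limma adjusted p = 0.521). CASQ1, the fast fibre calcium store protein, went the other way, at 469.9 ± 183 FPKM in high and 323 ± 234 FPKM in low IMF animals (log2 fold change 1.32, limma adjusted p = 0.651), and ACTN3 had a log2 fold change of -0.14 (limma adjusted p = 0.785). Among the slow fibre genes the smallest p belonged to CASQ2, ANKRD2 and MYBPC1, with log2 fold changes of -0.27, -0.66 and -0.13 (limma adjusted p = 0.759, 0.827 and 0.854). Of the thin filament genes 0 of 14 passed, with 7 positive and a median of 0.03. KLHL40, which encodes a protein that stabilizes the thin filament, had the smallest p, at 30.7 ± 26.4 FPKM in high and 19.0 ± 8.68 FPKM in low IMF animals (log2 fold change 0.50, limma adjusted p = 0.695). ACTA1, skeletal actin, on which troponin and tropomyosin lie, averaged 21138 ± 7005 FPKM in high and 27725 ± 7213 FPKM in low IMF animals (log2 fold change -0.59, limma adjusted p = 0.722), and the low IMF median was exceeded in 0 of 12 high IMF animals. TPM4, the remaining tropomyosin gene, averaged 5.29 FPKM in high and 5.05 FPKM in low IMF animals, and TNNT2, the cardiac T subunit, 2.12 and 1.64 FPKM in the same order, both far below the members. Of the fibre type regulators 0 of 15 passed, with 7 positive and a median of -0.02. MYOD1, the myogenic factor associated with fast fibres, averaged 18.8 ± 7.76 FPKM in high and 24.8 ± 6.84 FPKM in low IMF animals (log2 fold change -0.47, limma adjusted p = 0.636). NFATC1, a calcineurin-dependent factor associated with slow fibres, and EYA1, a transcriptional coactivator of muscle development, had log2 fold changes of 0.16 and 0.20 (limma adjusted p = 0.766 and 0.827).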

How the data were processed

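The authors deposited 1 table of values per transcript and animal, taken here as FPKM because they are fractional, with totals that differ between libraries. Per the submitters' processing notes, the tools were HISAT2 2.0.5 and StringTie 1.3.3 and the build was Sscrofa11.1, which all coordinates here use; their roles and the annotation release are not stated. Per the file headers, the deposited table adds a fold change as a ratio (low over high IMF) with p-values and q-values.

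Each listed transcript is above 0 in at least 19 of 24 libraries. FPKM was summed per symbol and chromosome. Sums, single transcripts (log2(FPKM + 1), mean of at least 0.5 FPKM) and shares in percent of a gene were fitted over the whole table with limma 3.58.1 in R 4.3.3 (trend, robust), and p-values were adjusted by Benjamini-Hochberg with a threshold of 0.05. The fold changes understate those of low genes. Ratios and correlations used permutation tests with 100000 resamples in Python 3.11.15, numpy 2.4.6 and scipy 1.17.1; the 36 pairs were adjusted together. TMM factors were computed as a trimmed mean of log ratios without precision weights, since FPKM are not counts. The fits were tested on simulated data.

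The members and lists were chosen with earlier results of these data known. Named were all 9 members, their transcripts with a mean share of at least 5%, the 3 most like genes among those with a mean of at least 5 FPKM, and up to 3 genes per list by smallest p; 1 of the most like genes is not reported here. TPM4, LSP1, DNTTIP1 and the transcripts without a symbol were named after their values were seen. Replicates are animals; their litters are not known here, and 6 animals share 9 identifier digits with another. No sequences of the members were used here.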

Additional observations from a re-analysis of the deposited data

How the results depend on the processing

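No member passed the threshold under any alternative run: 0 of 9 genes in 36 settings, 0 of 51 transcripts in 33 (0 of 47 where the mean had to reach 5 FPKM) and 0 of 51 shares in 30. The count over all genes, 6, ranged over 3 to 31 when single animals were dropped, the lowest on dropping high IMF animal 5 and the highest on dropping low IMF animal 10, and was 21 without high IMF animal 7 and low IMF animal 10, whose 10 most abundant genes took the lowest share of FPKM. The count over all transcripts, 4, was 1 with a mean of at least 5 FPKM and 0 with 1 animal per shared 9 identifier digits. It was 12 without high IMF animal 7 and low IMF animal 10, and 0 to 12 with 1 animal left out. The cause was not tested.

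Signs were less stable than calls. TNNI1 kept its sign in all 36 settings, at 0.22 to 0.47, with 0.22 without low IMF animal 7. TNNT1 changed it in 8, TNNC1 in 4, TPM2 and TPM3 in 3 each, TNNI2 in 2, and TNNT3, TNNC2 and TPM1 in 1 each. The log2 fold change ranged from -0.10 to 0.19 for TNNT1, -0.04 to 0.42 for TNNT3, -0.68 to 0.13 for TNNI2, -0.06 to 0.24 for TNNC1, -0.27 to 0.03 for TNNC2, -0.24 to 0.01 for TPM1, -0.07 to 0.31 for TPM2 (the highest with reference transcripts only) and -0.23 to 0.02 for TPM3. The TNNI1 to TNNI2 ratio difference was 0.40 to 1.03 with 1 animal left out. The alternatives that added transcripts without a symbol, took loci as units or left out animals lacking a main transcript were chosen after seeing the data. So were the interaction with identifier set and, for gene sums, the use of reference transcripts only. For the ratios the use of reference transcripts only was planned. No paired analysis was possible because the labels give no replicate numbers shared between the groups. What depth limits could not be given, since depth per library is unknown here.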
